A study of Mus musculus with 18 samples.

Results

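Hyaluronan is a large unbranched sugar polymer of the space between cells, and 9 mouse genes that make, bind or break it down were followed in the heart: the synthase genes Has1 and Has2, the depolymerising genes Cemip and Cemip2, the hyaluronidase genes Hyal1 and Hyal2, the receptor gene Cd44, and the genes of 2 secreted binding proteins, Tnfaip6 and Vcan. They are 9 of 25731 gene symbols in the deposited count table, chosen by symbol because Cemip was among the largest differences between injured and sham hearts. That contrast is therefore described here for the 9 genes, with no test. The SE beside a log2 difference was worked back from the F statistic of the edgeR fit. It gives the precision of the fitted difference and not the spread among animals, and no test of that contrast is read from it. Hearts of adult male wild-type C57BL/6 mice weighing about 20 g were sequenced at day 7 after surgery, with 1 library of total RNA per animal and 6 animals per group. The groups were ischemia-reperfusion plus decursin (IR+Decursin), ischemia-reperfusion alone (IR) and a sham operation (SHAM). Decursin is a coumarin compound from roots of Angelica gigas. The question named by the submitters is what decursin changes in gene expression of the injured heart. How much decursin was given, by which route and when, and how long ischemia lasted, the sources used here do not say.

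Hyaluronan synthases sit in the plasma membrane, join glucuronic acid and N-acetylglucosamine from their UDP-sugars, and push the growing chain out of the cell. Outside, the chain is bound by the receptor CD44, by versican (Vcan), a large proteoglycan, and by TSG-6 (Tnfaip6), which hangs heavy chains of inter-alpha-inhibitor onto it. It is cut at the cell surface by CEMIP, by its relative TMEM2 (Cemip2) and by HYAL2, and pieces taken up by cells are cut further in lysosomes by HYAL1 and exoglycosidases. In wounds of many tissues, heart included, hyaluronan builds up early in a provisional matrix that fibroblasts and leukocytes move through.

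Libraries held 27525876 to 34974692 counts and 18435 to 20389 genes with at least 1 count. Levels are TMM-scaled counts per library size (CPM) or the deposited FPKM, which are per gene length. On log2(FPKM + 0.1) the median difference of all tested genes was 0.27 in IR minus SHAM, against -0.0018 with TMM scaling. FPKM of 1 gene in different groups hold this shift as well. The heart label held: the 8 cardiomyocyte markers summed to 32662 to 54176 CPM in IR+Decursin, 28381 to 40627 CPM in IR and 51792 to 61262 CPM in SHAM. Each batch named in the labels holds exactly 1 group, so a batch effect and a group effect cannot be told apart. Although the labels give males, the female-specific RNA Xist reached 14219 counts in IR+Decursin 2, 14232 in IR 3 and 14072 in IR 4, against at most 8 in any other library. The gene model Gm26917 took 7.535% of the counts of IR+Decursin 6 and at most 0.915% of any other library. In bulk tissue, fewer cells of a type and less RNA per cell cannot be told apart.

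Promoters of 4 of the 9 genes are shown because each holds 1 or more of the elements in capitals, which the other 3 windows read did not: Cemip, Has1 and Tnfaip6, which were higher in injured hearts, and Hyal2, which was close between groups. Of the 9 genes, 7 had an entry in the RefSeq promoter table (build GRCm38.p6), which runs from 250 bases before to 50 bases after the annotated start; Has2 and Cemip2 had none. Capitals mark the TATA box (TATAAA), the cyclic AMP response element (CRE, TGACGTCA), the AP-1 element (TGANTCA) and the M-CAT element of muscle promoters (GGAATG), each searched on both strands (M-CAT reads CATTCC on the other strand).
Cemip, chr7:84086456-84086755, minus strand: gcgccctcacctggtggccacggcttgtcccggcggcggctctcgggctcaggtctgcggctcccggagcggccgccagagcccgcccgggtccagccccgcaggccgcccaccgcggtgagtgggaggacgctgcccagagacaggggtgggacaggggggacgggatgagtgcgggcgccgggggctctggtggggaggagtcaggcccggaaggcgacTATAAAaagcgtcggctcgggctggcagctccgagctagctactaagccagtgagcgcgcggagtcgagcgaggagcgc
Has1, chr17:17855139-17855438, minus strand: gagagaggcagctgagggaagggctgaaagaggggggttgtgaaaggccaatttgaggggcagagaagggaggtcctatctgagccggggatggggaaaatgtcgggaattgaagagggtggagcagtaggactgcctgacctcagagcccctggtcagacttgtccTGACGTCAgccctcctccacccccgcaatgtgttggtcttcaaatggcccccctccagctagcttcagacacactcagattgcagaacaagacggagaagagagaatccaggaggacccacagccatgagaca
Tnfaip6, chr2:52037863-52038162, plus strand: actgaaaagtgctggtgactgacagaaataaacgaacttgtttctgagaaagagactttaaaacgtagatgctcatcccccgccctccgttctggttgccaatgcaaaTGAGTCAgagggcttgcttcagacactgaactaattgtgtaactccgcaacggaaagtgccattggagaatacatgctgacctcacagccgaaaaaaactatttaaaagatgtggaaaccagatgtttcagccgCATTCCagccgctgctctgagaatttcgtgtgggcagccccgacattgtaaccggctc
Hyal2, chr9:107568913-107569212, plus strand: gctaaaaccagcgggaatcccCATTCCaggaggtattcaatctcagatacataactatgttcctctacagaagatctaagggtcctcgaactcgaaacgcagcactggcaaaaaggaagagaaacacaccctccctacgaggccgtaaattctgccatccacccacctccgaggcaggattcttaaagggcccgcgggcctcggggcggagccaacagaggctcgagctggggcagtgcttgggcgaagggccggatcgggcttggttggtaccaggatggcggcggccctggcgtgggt
The Cemip window held a TATA box with its first base at position -29 from the start, and it was 73.7% G and C, against a median of 52.7% over all promoters. The Has1 window held a CRE at -83, the Tnfaip6 window an AP-1 element at -142 and an M-CAT element at -8, and the Hyal2 window an M-CAT element at -229. Of 32851 promoters, 13.6% held the TATA letters, 1.79% the CRE, 7.81% the AP-1 element and 14.7% the M-CAT element. Of the other 3 windows (Cd44, Hyal1 and Vcan), none held these letters. The GC box (GGGCGG, 35.7% of all promoters) and the CCAAT box (CCAAT, 37.4%) were searched too and are not capitalised; the Cd44 window held the GC box, and the Hyal1 and Vcan windows held both. Such matches describe letters only.

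For 6 of the 9 genes every IR library was above every SHAM library in CPM, as it was for 15.4% of all tested genes. Since this contrast chose the genes, nothing is read from that count. A gene is called here where the false discovery rate over 15088 tested genes was under 0.05 (edgeR quasi-likelihood test). In IR+Decursin against SHAM hearts, 7 of the 9 were called higher, where 17.5% of all tested genes were called higher and 11.8% lower. Of these 7, Has1 and Cemip passed the filter on low counts only with the IR libraries in the fit. In a fit of IR+Decursin and SHAM alone, 5 of 7 tested were called higher, beside 2425 of 14388 genes. Only Tnfaip6 had all 6 IR+Decursin libraries above all SHAM libraries, which 4.44% of tested genes did. In IR+Decursin against IR hearts, 0 of the 9 were called, as were 0% of all tested genes. At an unadjusted p under 0.05 there was 1 of the 9 (Has2), against 18.0% of all tested genes. None of the 9 stood wholly below IR in the IR+Decursin libraries, as 0.245% of tested genes did. The last 2 comparisons share their SHAM or IR libraries with the contrast that chose the genes.

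The synthase genes were low in every library. Has2 encodes the main synthase of developing heart and of many fibroblasts. It stood at 0.389, 0.913 and 3.08 CPM in IR+Decursin (lowest, median and highest library), at 1.38, 2.62 and 3.80 CPM in IR, and at 0.117, 0.439 and 0.691 CPM in SHAM. Every IR library was above every SHAM library, and so were 5 of 6 IR+Decursin libraries, with IR+Decursin 6 inside the SHAM range and IR+Decursin 1 highest of its group. Of those 5, IR+Decursin 3 was all but level with the highest SHAM library, at 0.6918 CPM (24 counts) against 0.6911 CPM (20 counts) in SHAM 4. Has2 was 6.04-fold higher in IR than in SHAM (log2 difference 2.60 ± 0.47, SE). It rose 3.07-fold in IR+Decursin against SHAM (1.62 ± 0.46, adjusted p = 0.0133, edgeR).

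Has2 also had the largest difference of the 9 genes between the injured groups. Its mean was 1.33 ± 1.01 CPM in IR+Decursin and 2.63 ± 0.88 CPM in IR (SD, n = 6 each). Of the 6 IR+Decursin libraries, 4 lay below every IR library and 0 above, so the groups overlapped through IR+Decursin 1 and IR+Decursin 4. The log2 difference was -0.98 ± 0.42 (SE), a fold of 0.509 with a 95% interval of 0.273 to 0.947, and it was not called (adjusted p = 0.237, edgeR). Over all single-library omissions it ran from -1.42 to -0.79 with adjusted p = 0.0428 to 0.444 (edgeR). Without IR+Decursin 1, the highest of its group, it was -1.42 and called (adjusted p = 0.0428, edgeR). That fit called 976 of 15207 genes, against 0 with all libraries, so the call is not particular to Has2. Without that same library the rise over SHAM was 1.18 and no longer called (adjusted p = 0.0508, edgeR).

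Has1, which encodes a synthase of lower activity, was near the limit of detection, with 88 counts over the 6 IR+Decursin libraries, 111 over IR and 19 over SHAM. It stood at 0.0778, 0.313 and 0.917 CPM in IR+Decursin, 0.0580, 0.577 and 0.795 CPM in IR, and 0, 0.0528 and 0.346 CPM in SHAM. In IR, 5 of 6 libraries were above all SHAM libraries, and the exception, IR 3, had 2 counts. SHAM 1 had none, which at its depth allows up to 0.117 CPM. The log2 difference of IR minus SHAM was 2.17 ± 0.68 (SE), and 2.93 without SHAM 4, the highest of its group. In IR+Decursin against SHAM it was 1.84 ± 0.69 with adjusted p = 0.0495 (edgeR), and the call was lost in 14 of 18 single-library omissions (adjusted p up to 0.145, edgeR) and without the libraries with Xist (1.42, adjusted p = 0.110). In IR+Decursin against IR it was -0.33 ± 0.58 (95% interval -1.56 to 0.91, adjusted p = 0.791, edgeR). Has1 entered the test against SHAM only with the IR libraries in the fit, since the fit of IR+Decursin and SHAM alone left it out. The p of Has1 against SHAM and its calls there are therefore a description, as for Cemip below.

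Has3, the remaining mammalian synthase gene, went the other way. It stood at 0.579, 1.498 and 1.59 CPM in IR+Decursin, 0.247, 0.699 and 1.22 CPM in IR, and 0.803, 1.79 and 2.25 CPM in SHAM. It fell in IR against SHAM (-1.11 ± 0.37, adjusted p = 0.0197, edgeR), with 3 of 6 IR libraries below all SHAM libraries. The call was lost with total-count scaling (-0.80, adjusted p = 0.0755, edgeR). In IR+Decursin it was -0.35 ± 0.37 against SHAM and 0.75 ± 0.37 against IR, neither of them called (adjusted p = 0.5005 and 0.291, edgeR).

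The make-up of synthase transcripts per gene length is given as a description. Of the summed FPKM of Has1, Has2 and Has3, Has2 made up 40.7 ± 20.6% in IR+Decursin, 61.7 ± 11.5% in IR and 25.2 ± 14.5% in SHAM (SD, n = 6 each). Has3 made up 32.7 ± 19.8% in IR+Decursin, 13.1 ± 7.87% in IR and 63.03 ± 22.3% in SHAM. The sum was 0.321 to 1.09 FPKM in IR+Decursin, 0.724 to 1.41 FPKM in IR and 0.282 to 0.595 FPKM in SHAM, so that IR and SHAM did not overlap and IR+Decursin spanned both. Within IR+Decursin the leading transcript was Has2 in IR+Decursin 1 and IR+Decursin 4, Has1 in IR+Decursin 2 and IR+Decursin 3, and Has3 in IR+Decursin 6, while in IR+Decursin 5 Has2 (41.9%) and Has3 (42.2%) were level. In SHAM, Has3 led in every library except SHAM 5, and in IR, Has2 led in every library.

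**Figure D1:**
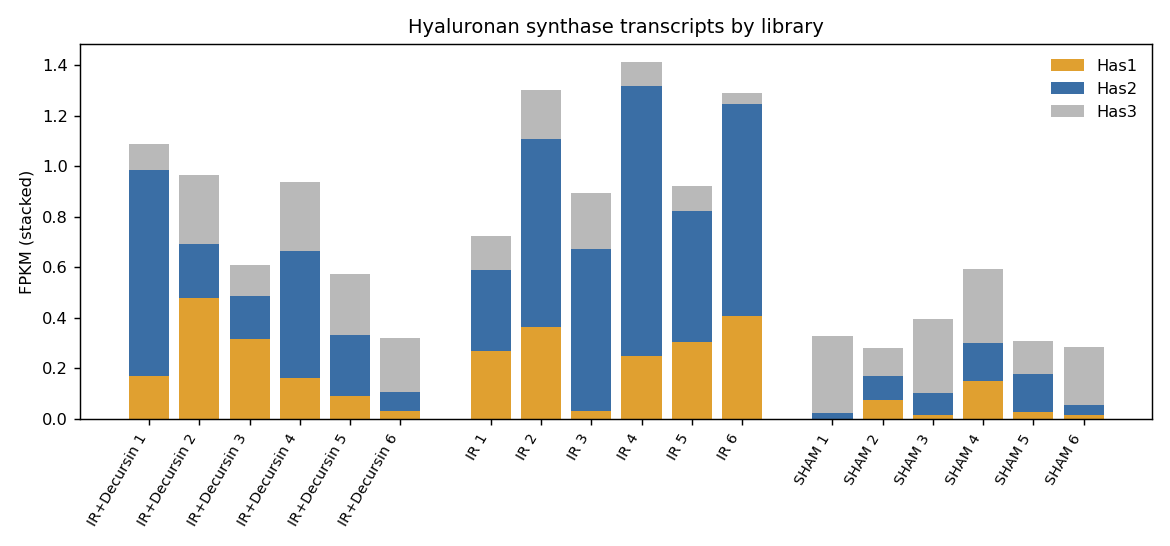
Stacked FPKM of Has1, Has2 and Has3 in each of the 18 libraries, with IR+Decursin left, IR in the middle and SHAM right; each bar is 1 library. The IR bars reach 0.724 to 1.41 FPKM and have Has2 as their tallest section, the SHAM bars stay at or under 0.595 FPKM, and IR+Decursin 6 looks like a SHAM bar at 0.321 FPKM.

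Cemip, whose product binds hyaluronan and drives its depolymerisation, was all but absent from SHAM hearts, with 4 counts over 6 libraries and none in 3 of them. It stood at 0, 2.38 and 9.76 CPM in IR+Decursin, 1.002, 2.58 and 9.16 CPM in IR, and 0, 0.0173 and 0.0651 CPM in SHAM. IR+Decursin 6 had 0 counts, which allows up to 0.117 CPM, and IR+Decursin 5 had 4, while the other IR+Decursin libraries had 64 to 371. IR 3 and IR 6 held 316 and 315 counts, and the other IR libraries held 38 to 94, so most of the IR sum came from 2 animals. The fitted difference of IR minus SHAM was 7.24 ± 1.40 (151-fold). Cemip rose in IR+Decursin against SHAM (6.89 ± 1.41, adjusted p = 0.00229, edgeR), or 6.15 without IR+Decursin 1. It passed the filter on low counts only with the IR libraries in the fit, the group where it was chosen as high. The p of this rise is therefore a description.

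Between the injured groups, Cemip differed by -0.35 ± 0.81 for IR+Decursin minus IR (95% interval -2.09 to 1.38, adjusted p = 0.849, edgeR). The interval is wide, and the value ran from -1.08 without IR+Decursin 1 to 0.04 without IR 3. Its relative Cemip2, which encodes the cell surface hyaluronidase TMEM2, behaved more evenly. Cemip2 stood at 16.3, 21.4 and 26.6 CPM in IR+Decursin, 18.9, 23.8 and 28.5 CPM in IR, and 11.8, 14.3 and 17.2 CPM in SHAM. Every IR library was above every SHAM library, and IR+Decursin 5 was the only IR+Decursin library inside the SHAM range.

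Cemip2 was 1.63-fold higher in IR than in SHAM (0.70 ± 0.12), rose in IR+Decursin against SHAM (0.59 ± 0.12, adjusted p = 0.00204, edgeR) and differed by -0.12 ± 0.12 between IR+Decursin and IR (95% interval -0.38 to 0.15, adjusted p = 0.639, edgeR). Cemip2 remained the more abundant of the pair per gene length in every library. Cemip made up 8.56 ± 8.43% of their summed FPKM in IR+Decursin, 10.8 ± 7.69% in IR and 0.114 ± 0.132% in SHAM (SD, n = 6 each). The highest share was 21.9%, in IR+Decursin 1, followed by 21.4% in IR 3.

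The 2 hyaluronidase genes were not called in IR+Decursin against SHAM or against IR. Hyal2, which encodes a membrane-anchored hyaluronidase, stood at 18.9, 24.9 and 27.2 CPM in IR+Decursin, 18.5, 22.8 and 24.8 CPM in IR, and 19.7, 21.3 and 23.5 CPM in SHAM. Hyal1, which encodes the lysosomal one, stood at 4.79, 6.69 and 8.21 CPM in IR+Decursin, 4.19, 5.50 and 9.45 CPM in IR, and 3.96, 5.94 and 8.90 CPM in SHAM. All 3 groups overlapped for both genes.

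In IR minus SHAM the log2 difference was 0.04 ± 0.09 for Hyal2 and -0.06 ± 0.19 for Hyal1. In IR+Decursin minus SHAM it was 0.15 ± 0.09 for Hyal2 (95% interval -0.05 to 0.35, adjusted p = 0.241, edgeR) and 0.12 ± 0.19 for Hyal1 (-0.29 to 0.53, adjusted p = 0.683). In IR+Decursin minus IR they were the 2 genes of the 9 with a positive value, 0.11 ± 0.09 for Hyal2 (-0.09 to 0.31, adjusted p = 0.556, edgeR) and 0.18 ± 0.19 for Hyal1 (-0.23 to 0.59, adjusted p = 0.643). The result for Hyal2 depended on scaling: with total-count scaling, which shifts the median of all genes by 0.31 in IR against SHAM and 0.22 in IR+Decursin against SHAM, Hyal2 was called higher in IR+Decursin against SHAM (0.39, adjusted p = 0.0153, edgeR) and stood at 0.35 in IR minus SHAM. Under that scaling the Hyal1 difference of IR minus SHAM turned positive (0.24). The FPKM ratio of Hyal2 to Hyal1, which no scaling touches, was 6.01 ± 1.56 in IR+Decursin, 6.38 ± 1.14 in IR and 5.93 ± 1.31 in SHAM (SD, n = 6 each).

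Cd44, the main hyaluronan receptor of leukocytes and activated mesenchymal cells, stood at 11.4, 34.1 and 59.0 CPM in IR+Decursin, 32.0, 52.7 and 71.5 CPM in IR, and 6.99, 7.71 and 12.7 CPM in SHAM. IR and SHAM were far apart, and IR+Decursin spread over the whole gap, with IR+Decursin 6 inside the SHAM range and IR+Decursin 1 above 3 of the IR libraries. Cd44 was 5.66-fold higher in IR than in SHAM (2.50 ± 0.36). It rose 3.80-fold in IR+Decursin against SHAM (1.93 ± 0.36, adjusted p = 0.00133, edgeR). Against IR it was -0.57 ± 0.34 (95% interval -1.30 to 0.15, adjusted p = 0.376, edgeR), with 3 of 6 IR+Decursin libraries below all IR libraries and 0 above.

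Tnfaip6 was the only gene of the 9 with all IR+Decursin libraries above all SHAM libraries. It stood at 1.45, 4.41 and 8.70 CPM in IR+Decursin, 3.85, 5.50 and 7.26 CPM in IR, and 0.606, 1.10 and 1.20 CPM in SHAM. IR+Decursin held both the highest library of the series, IR+Decursin 1, and the lowest of the injured ones, IR+Decursin 5 at 1.45 CPM and IR+Decursin 6 at 1.52 CPM. Tnfaip6 was 5.602-fold higher in IR than in SHAM (2.49 ± 0.38) and rose 4.58-fold in IR+Decursin against SHAM (2.20 ± 0.38, adjusted p = 0.000636, edgeR). Against IR it was -0.29 ± 0.34 (95% interval -1.02 to 0.44, adjusted p = 0.678, edgeR).

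Vcan, the versican core protein gene, was the most abundant of the 9 in CPM, which favours long transcripts. It stood at 30.3, 62.3 and 136 CPM in IR+Decursin, 63.9, 73.1 and 152 CPM in IR, and 22.3, 27.4 and 37.6 CPM in SHAM. IR 6, at 152 CPM, stood apart from the other IR libraries, which ended at 93.3 CPM, and IR+Decursin 6 was again inside the SHAM range. Vcan was 3.09-fold higher in IR than in SHAM (1.63 ± 0.31) and rose 2.50-fold in IR+Decursin against SHAM (1.32 ± 0.31, adjusted p = 0.00482, edgeR). Against IR it was -0.31 ± 0.30 (95% interval -0.95 to 0.33, adjusted p = 0.612, edgeR).

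**Figure D2:**
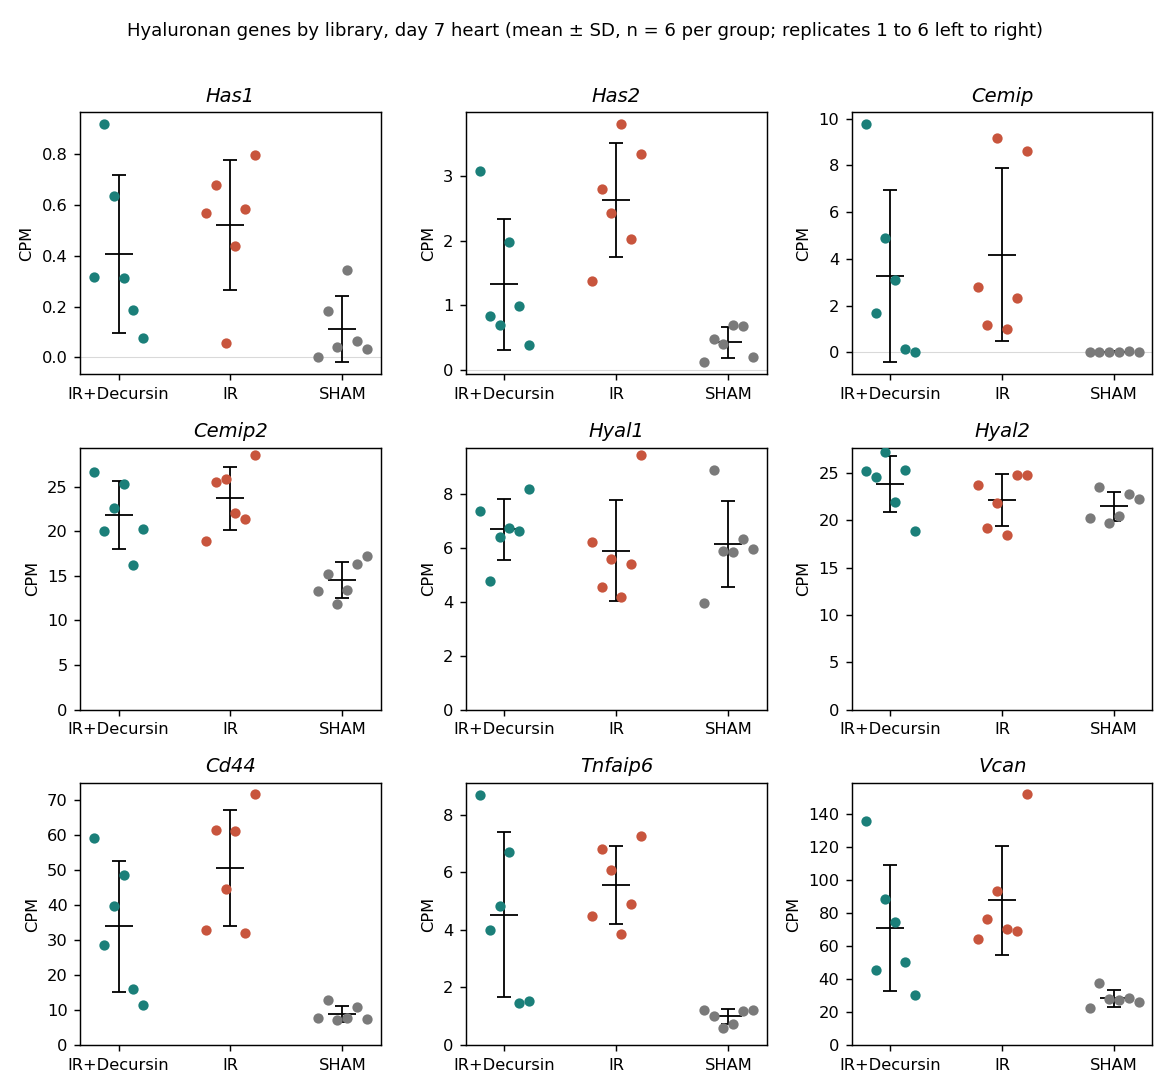
CPM of each of the 9 genes in every library, with replicates 1 to 6 of a group drawn left to right, IR+Decursin left, IR in the middle and SHAM right, and the mean ± SD of each group (n = 6). Cemip is at or near 0 in all SHAM libraries and in IR+Decursin 5 and 6, and Hyal1 and Hyal2 overlap in all groups.

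**Figure D3:**
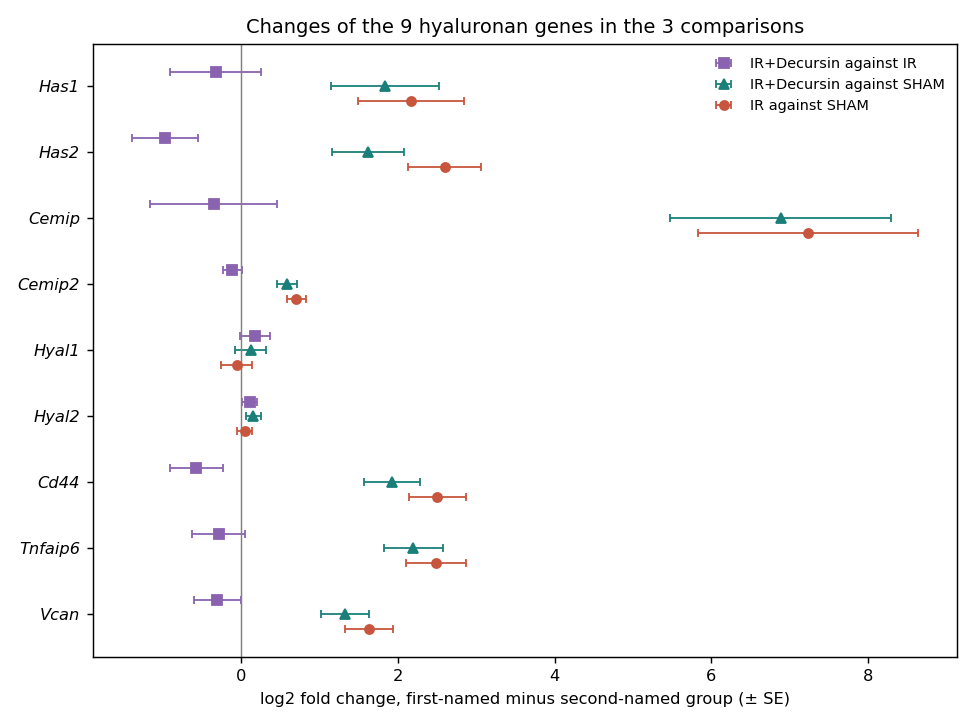
Log2 fold change ± SE of each of the 9 genes in the 3 comparisons, first-named minus second-named group. The IR+Decursin minus IR values lie between -0.98 (Has2) and 0.18 (Hyal1), and 7 genes lie at 0.59 or above in IR+Decursin minus SHAM.

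Over the 9 genes, the median log2 difference of IR+Decursin minus IR was -0.31, with 7 values below 0 and 2 above, beside a median of -0.02 over all tested genes. None of these 9 differences was called by edgeR or by limma with voom, and none of the 6 to which DESeq2 gave an adjusted p was called by it. A p that misses the threshold does not show that the 2 groups were alike, and the 95% interval of the fold reached down to 0.273 for Has2 and 0.407 for Cd44. The median of IR+Decursin minus SHAM was 1.62, beside -0.00148 over all tested genes, and that of IR minus SHAM was 2.17, beside -0.00184. The last contrast chose the genes, so nothing is read from its median. The other comparisons share IR or SHAM libraries with it, which can lean their medians, so these are a description too.

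The spread among IR+Decursin animals followed the same libraries from gene to gene. IR+Decursin 1 was the highest of its group for 6 of the 9 genes (Has2, Cemip, Cemip2, Cd44, Tnfaip6 and Vcan). IR+Decursin 6 was among the 2 lowest for 7 genes, and for 7 genes it lay inside or below the SHAM range. In the IR group, IR 6 was the highest for 6 genes (Has1, Cemip2, Hyal1, Cd44, Tnfaip6 and Vcan) and above all SHAM libraries for all 9. Without IR+Decursin 6, whose counts hold the large share of Gm26917, 0 of the 9 were called against IR (Cemip -0.10, Has2 -0.79, Cd44 -0.40). The same 7 were called against SHAM in that fit (Cemip 7.14, Has2 1.80, Cd44 2.10). Of all 15266 genes tested there, 0 were called against IR, and 2972 were called higher and 2158 lower against SHAM. Without the 3 libraries with Xist, Cemip was -0.06, Has2 -0.73 and Has1 -1.07 ± 0.59 against IR, with 0 of the 9 and 0 of 15239 genes called.

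The order of the levels per gene length changed with injury. In IR+Decursin it was Hyal2 (10.8 ± 2.10 FPKM), Cd44 (6.31 ± 3.76), Vcan (5.11 ± 3.04), Cemip2 (3.39 ± 0.80), Tnfaip6 (3.04 ± 2.06), Hyal1 (1.83 ± 0.27), Cemip (0.408 ± 0.472), Has2 (0.337 ± 0.274) and Has1 (0.208 ± 0.164; SD, n = 6). In this order, Hyal1 and Cemip were the only neighbours whose libraries did not overlap. In IR it was Hyal2 (10.5 ± 0.99 FPKM), Cd44 (9.72 ± 3.41), Vcan (6.50 ± 2.40), Cemip2 (3.89 ± 0.66), Tnfaip6 (3.81 ± 0.94), Hyal1 (1.72 ± 0.50), Has2 (0.690 ± 0.260), Cemip (0.522 ± 0.468) and Has1 (0.271 ± 0.131), with gaps only on either side of Hyal1. In SHAM it was Hyal2 (8.27 ± 0.65 FPKM), Cemip2 (1.92 ± 0.28), Vcan (1.70 ± 0.30), Hyal1 (1.46 ± 0.37), Cd44 (1.37 ± 0.35), Tnfaip6 (0.545 ± 0.138), Has2 (0.0909 ± 0.0524), Has1 (0.0479 ± 0.0571) and Cemip (0.00235 ± 0.00283), with gaps below Hyal2 and on either side of Tnfaip6. Hyal2 thus had the highest mean in each group, while Cd44 stood next to it in both injured groups and in the fifth place in SHAM. In IR the medians of the pair were close (10.4 FPKM for Hyal2 and 10.3 FPKM for Cd44), and Cd44 was above Hyal2 in IR 2, IR 4 and IR 6. The FPKM ratio of Cd44 to Vcan was 1.22 ± 0.35 in IR+Decursin, 1.54 ± 0.48 in IR and 0.805 ± 0.121 in SHAM (SD, n = 6 each).

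Marker genes of some other cells moved with these levels, and their part in them was not tested. The 8 activated fibroblast markers summed to 419 to 2381 CPM in IR+Decursin, 692 to 3207 CPM in IR and 340 to 497 CPM in SHAM. Of these 8, 5 rose and 1 fell in IR against SHAM, and 3 rose in IR+Decursin against SHAM. The 4 libraries with the highest sums, IR 6, IR 3, IR+Decursin 1 and IR+Decursin 3, were also the 4 with the most Cemip, and IR+Decursin 6 at 419 CPM had no Cemip count. The 10 macrophage and monocyte markers summed to 324 to 939 CPM in IR+Decursin, 689 to 1298 CPM in IR and 229 to 319 CPM in SHAM, and all 10 rose in both comparisons with SHAM. The lowest IR+Decursin library in that sum and in Cd44 was IR+Decursin 6.

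Markers of epicardium and mesothelium, a layer known for hyaluronan synthesis, summed to 3.89 to 31.5 CPM in IR+Decursin, 4.71 to 40.5 CPM in IR and 2.37 to 4.85 CPM in SHAM, where Bnc1 was at 0 in every library. Of 7 tested, 6 rose in each comparison with SHAM. IR+Decursin 2 had the highest sum and the most Has1 of its group, but IR 6, with the most Has1 of the IR group, had the lowest sum there. Neutrophil markers summed to 2.33 to 69.2 CPM in IR+Decursin, 23.9 to 153 CPM in IR and 1.07 to 54.4 CPM in SHAM. Lymphatic endothelial markers summed to 122 to 177 CPM in IR+Decursin, 141 to 175 CPM in IR and 102 to 132 CPM in SHAM, and all 8 cardiomyocyte markers fell in IR against SHAM. T cell markers summed to 1.98 to 4.71 CPM in IR+Decursin, 2.25 to 10.2 CPM in IR and 0.766 to 1.31 CPM in SHAM. Blood endothelial markers summed to 896 to 1398 CPM in IR+Decursin, 766 to 955 CPM in IR and 1048 to 1310 CPM in SHAM. Of these 6, Aqp1 and Tie1 fell in IR against SHAM, and Pecam1, Cdh5, Kdr and Cldn5 were not called. Aqp1 averaged 317 CPM in IR+Decursin, 183 CPM in IR and 446 CPM in SHAM. Smooth muscle and pericyte markers summed to 1062 to 1382 CPM in IR+Decursin, 722 to 1179 CPM in IR and 1189 to 1316 CPM in SHAM. Of these 6, 4 fell in IR against SHAM. None of either set was called in IR+Decursin against SHAM. Resident fibroblast sums overlapped, at 2312 to 2736 CPM in IR+Decursin, 2147 to 2619 CPM in IR and 2143 to 2732 CPM in SHAM. The single markers did change: of 8, 6 rose and 1 (Gsn) fell in IR against SHAM, and 5 rose in IR+Decursin against SHAM. Gsn, a large part of the sum, averaged 1056 CPM in IR+Decursin, 790 CPM in IR and 1249 CPM in SHAM.

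**Figure D4:**
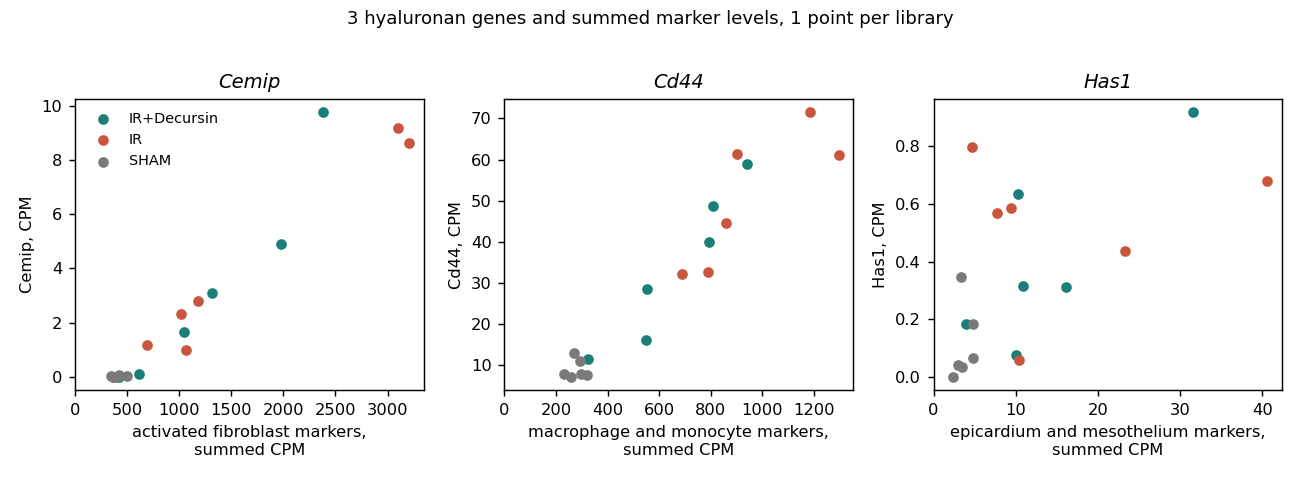
Cemip against summed activated fibroblast markers, Cd44 against summed macrophage and monocyte markers, and Has1 against summed epicardium and mesothelium markers, all in CPM, 1 point per library coloured by group. High Cemip goes with high activated fibroblast sums in both injured groups, Cd44 with macrophage sums, and Has1 shows no such order.

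The genes whose levels followed a given gene most closely from animal to animal were ranked over the 12 injured libraries, centred on their group means, among 11703 or 11704 genes. The 12 points share their cell make-up and depth across genes, so the correlations are a description. Closest to Cemip were Zmat3, a zinc finger gene (Pearson r 0.97), Cnn3, calponin 3 of the actin cytoskeleton (0.96), and Postn, periostin of activated fibroblasts (0.96). Closest to Has2 were Uap1l1, a relative of the enzyme that makes UDP-N-acetylglucosamine (0.97), Abca1, a cholesterol exporter (0.94), and Aftph, a trafficking protein gene (0.94). Closest to Tnfaip6 were Arf2, a small GTPase gene (0.98), Bnc2, a zinc finger gene (0.97), and Rian, an imprinted non-coding RNA (0.97). Closest to Vcan were Eri1, an exoribonuclease gene (0.98), Atp7a, a copper transporter gene (0.97), and Gcnt1, which branches O-glycans (0.97). Between the 9 genes themselves, r was 0.88 for Tnfaip6 with Cd44, 0.87 for Cemip with Vcan and 0.81 for Has2 with Cd44. It was 0.83 for Vcan with Cd44 and for Tnfaip6 with Cemip2 and with Cemip, and 0.82 for Tnfaip6 with Vcan. But r was 0.46 for Has2 with Cemip and -0.01 for Has2 with Has1. Many genes outside the 9 followed more closely: Cd44 had rank 144 for Tnfaip6 and rank 368 for Has2, and Vcan had rank 152 for Cemip.

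The rest of the pathway was followed through 60 listed genes, of which 48 were tested; changes below are log2 differences ± SE from edgeR, and those said to rise or fall passed the adjusted threshold. In IR against SHAM, 25 rose and 6 fell (median log2 difference 0.53), where 25.3% of all tested genes were called higher and 21.7% lower. Against SHAM, 21 rose and 2 fell in IR+Decursin (median 0.43), beside the shares of 17.5% and 11.8% over all tested genes. In IR+Decursin against IR 0 were called (median -0.18), with 10 at an unadjusted p under 0.05, where 18.0% of all tested genes were. DESeq2 called Uap1l1 in that last comparison, where it called 470 of all tested genes. Without IR+Decursin 1, edgeR called Uap1l1 (-0.64, adjusted p = 0.0159), Hk2 (0.37, adjusted p = 0.0478) and Hexa (-0.45, adjusted p = 0.0430) there. That fit called 976 of 15207 genes, 696 higher and 280 lower. With total-count scaling, the calls over all tested genes in IR against SHAM split into 7012 higher and 1056 lower in place of 3810 and 3269, and in IR+Decursin against SHAM into 4781 and 377 in place of 2647 and 1774.

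Of 14 genes that supply UDP-sugars, 7 rose and 3 fell in IR against SHAM, and 6 rose and 2 fell in IR+Decursin against SHAM. The shares that fell were close to those of all tested genes. Uap1l1 averaged 10.9 ± 2.25 CPM in IR+Decursin, 15.8 ± 2.35 CPM in IR and 6.59 ± 1.11 CPM in SHAM (SD, n = 6 each). It rose in IR against SHAM (1.27 ± 0.14, adjusted p = 4.26e-06, edgeR), and 5 of 6 IR+Decursin libraries lay below all IR libraries, a difference of -0.54 ± 0.14 that was not called (adjusted p = 0.0958, edgeR). Ugdh, which oxidises UDP-glucose to UDP-glucuronic acid, rose as well (0.86 ± 0.20 in IR+Decursin and 1.07 ± 0.20 in IR, each against SHAM). Ugp2, which makes UDP-glucose one step before and also feeds glycogen, fell to 324 ± 66.5 CPM in IR+Decursin and 234 ± 41.0 CPM in IR, against 495 ± 112 CPM in SHAM (log2 differences -0.61 ± 0.16 in IR+Decursin and -1.08 ± 0.16 in IR). Hk2, a hexokinase of heart muscle, fell in IR against SHAM (-0.56 ± 0.11), as did Pgm1, a phosphoglucomutase gene named here after its values were seen (-0.45 ± 0.09).

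Of 11 tested genes of other hyaluronan-binding proteins, 5 rose and 2 fell in IR against SHAM, and 4 rose in IR+Decursin against SHAM. Stab1, a scavenger receptor of macrophages and endothelium, averaged 155 ± 29.0 CPM in IR+Decursin, 185 ± 45.1 CPM in IR and 81.2 ± 11.0 CPM in SHAM. Hmmr, which encodes a hyaluronan-binding protein of dividing cells, had the largest rise of these (2.50 ± 0.57 in IR+Decursin and 3.22 ± 0.57 in IR, each against SHAM). Tlr2, a receptor of the innate immune response that can be triggered by hyaluronan fragments, rose by 0.99 ± 0.25 in IR+Decursin and 1.65 ± 0.25 in IR. Layn, the gene of the receptor layilin, rose by 0.74 ± 0.19 in IR+Decursin and 0.80 ± 0.19 in IR. The 2 that fell in IR, named after their values were seen, were Hapln1, a link protein gene (-1.38 ± 0.55), and Habp4 (-0.36 ± 0.10).

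Of the 5 tested genes of heavy chain donors and partners of TSG-6, 4 rose in IR against SHAM and 3 in IR+Decursin against SHAM. Ptx3, whose protein cross-links the heavy chains on hyaluronan, averaged 4.71 ± 4.10 CPM in IR+Decursin, 9.01 ± 4.05 CPM in IR and 0.619 ± 0.264 CPM in SHAM. Its log2 rise over SHAM was 2.93 ± 0.62 in IR+Decursin and 3.86 ± 0.63 in IR. The heavy chain genes Itih2 (1.51 ± 0.33), Itih3 (1.38 ± 0.34) and Itih4 (1.14 ± 0.26) rose in IR against SHAM at low levels of 1.63, 0.617 and 4.95 CPM in IR. Without IR+Decursin 1, the rise of Itih2 in IR+Decursin over SHAM (1.07 with all libraries) was 0.71 and not called (adjusted p = 0.0912, edgeR). Itih3 was not called in IR+Decursin against SHAM (0.42 ± 0.36, adjusted p = 0.397, edgeR).

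Among lysosomal exoglycosidase genes, whose enzymes trim hyaluronan fragments, Gusb and Hexa rose in both comparisons with SHAM. Hexa averaged 78.6 ± 15.8 CPM in IR+Decursin, 101 ± 20.6 CPM in IR and 52.1 ± 5.69 CPM in SHAM. In IR+Decursin against SHAM, Gusb rose by 0.84 ± 0.16 and Hexa by 0.59 ± 0.13. In IR against SHAM, Gusb rose by 1.20 ± 0.16 and Hexa by 0.96 ± 0.13. These enzymes also serve other sugars. Hyal3 was too low to test, with 23 counts over IR+Decursin, 21 over IR and 13 over SHAM.

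Of 8 genes of CD44 linkers, sheddases and ligands, 5 rose in IR against SHAM and 4 in IR+Decursin against SHAM. Mmp14, a membrane protease that sheds CD44, averaged 75.2 ± 42.2 CPM in IR+Decursin, 114 ± 25.2 CPM in IR and 11.9 ± 2.48 CPM in SHAM. Its log2 rise over SHAM was 2.65 ± 0.37 in IR+Decursin and 3.25 ± 0.38 in IR. Spp1, osteopontin, rose by 4.50 ± 0.89 in IR+Decursin and 5.79 ± 0.94 in IR. Mmp9, a gelatinase that CD44 can hold at the cell surface, rose by 3.39 ± 0.94 in IR+Decursin and 4.93 ± 0.98 in IR. Its call in IR+Decursin was lost with limma and voom quality weights (adjusted p = 0.0774) and on log2(FPKM + 1) (adjusted p = 0.0586, limma). Msn, moesin, which ties CD44 to actin, rose by 0.54 ± 0.13 in IR+Decursin and 0.77 ± 0.13 in IR. Of 6 versican-cleaving proteases, Adamts4 alone rose, by 3.62 ± 0.79 in IR+Decursin and 4.74 ± 0.80 in IR, each against SHAM. It averaged 6.04 ± 5.48 CPM in IR+Decursin, 13.2 ± 4.16 CPM in IR and 0.481 ± 0.486 CPM in SHAM.

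**Figure D5:**
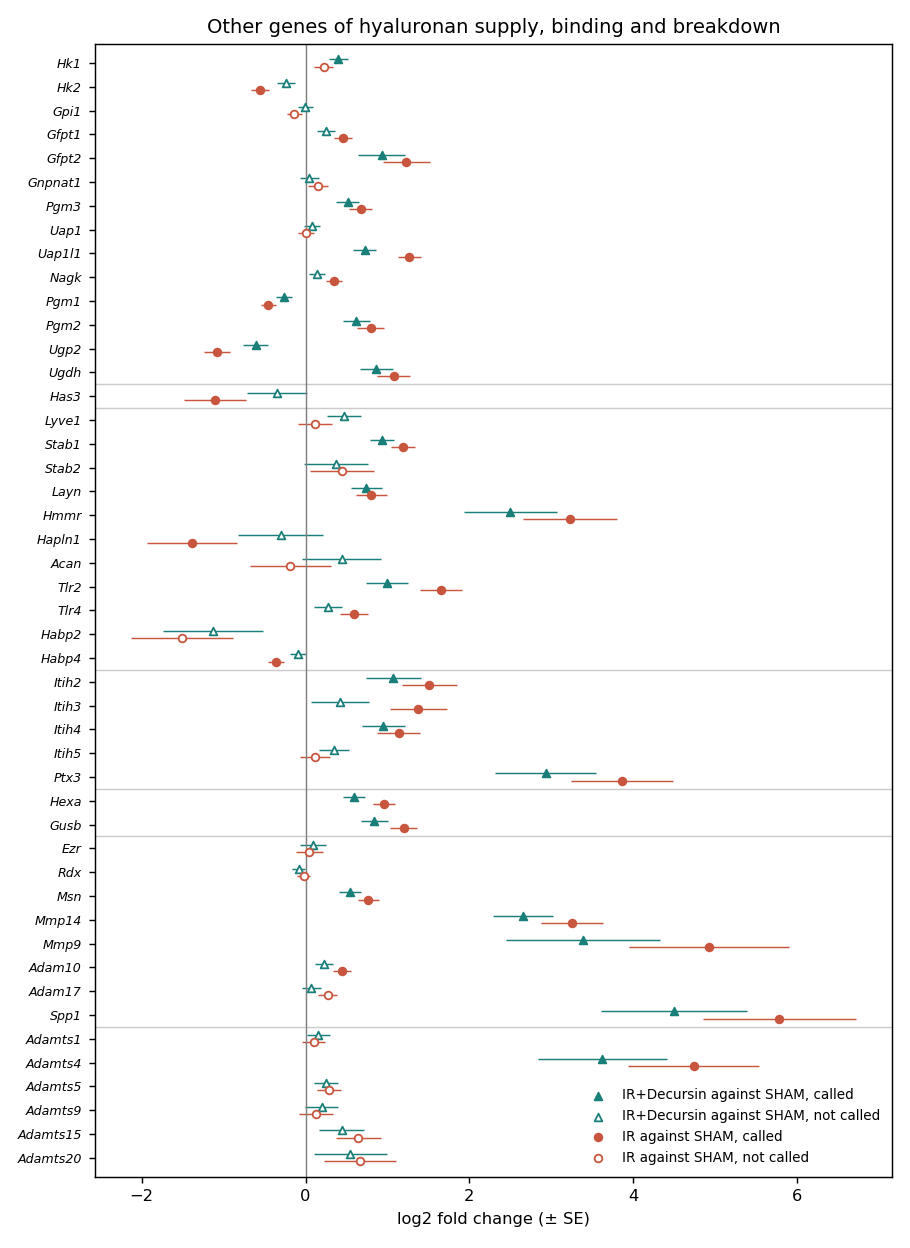
Log2 fold change ± SE of other tested genes of the pathway, in IR+Decursin against SHAM and in IR against SHAM, grouped from top to bottom as UDP-sugar supply, Has3, other binding proteins, partners of TSG-6, exoglycosidases, CD44 partners and versican proteases. Filled marks were called and open marks were not; Spp1 has the largest value, 4.50 in IR+Decursin and 5.79 in IR.

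Hyal1 and Hyal2 lie in a dense cluster of genes, and Has2 has an antisense gene, Has2os. Whether the counting used strand is not given, so reads from overlapping genes cannot be told apart. Has2os held 19 counts over IR+Decursin, 21 over IR and 10 over SHAM, against 285, 567 and 73 for Has2. Of 4 tested neighbours of Hyal1 and Hyal2, Ifrd2 (-0.36 ± 0.10), Nprl2 (-0.33 ± 0.10) and Tusc2 (-0.30 ± 0.09) fell in IR against SHAM, and none did with total-count scaling, under which Tusc2 turned positive (0.01). The calls of Nprl2 and Tusc2 were also lost when the 3 Xist libraries were left out (adjusted p = 0.0562 and 0.0940, edgeR). None of the 4 was called in IR+Decursin against SHAM or against IR. Without IR+Decursin 1, Ifrd2 (0.35, adjusted p = 0.0375) and Tusc2 (0.32, adjusted p = 0.0434) were called against IR (edgeR), as were 976 of 15207 genes in that fit.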

How the data were processed

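Gene counts were made by the authors with fastp, HISAT2 and HTSeq on GRCm39, per the submitters' processing notes, which name no version, annotation or strand setting. FPKM values were deposited by the authors beside the counts, and how gene length was set is not stated. All 18 libraries of 18 mice entered 1 fit of the counts: genes were kept by filterByExpr by group (15088 of 25731), scaled by TMM, and tested with edgeR's quasi-likelihood test (15 residual degrees of freedom) with Benjamini-Hochberg adjustment over all tested genes at 0.05. Intervals of 95% come from this fit. A count of 0 allows up to 3 counts, for counting error only. FPKM served for levels between genes and, as log2(FPKM + 1) or log2(FPKM + 0.1) with limma-trend, as alternatives; pseudocounts understate changes of low genes. Other alternatives were total-count scaling, DESeq2, voom, no filter, a filter of 1 CPM in 6 libraries, 2-group fits, a replicate block and leaving libraries out. The fit was tested on simulated data. Each batch in the labels equals 1 group.

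The 9 genes, the pathway lists and the cell markers were chosen with earlier results of these data known. Named were the 9 genes, of each pathway list up to 4 genes with the smallest adjusted p among those called in IR against SHAM, any called in IR+Decursin against IR, and Has3, Has2os and Hyal3; 1 gene so chosen is not reported here. The genes most like a given one were the 3 with the highest Pearson r of log2(CPM + 1). Ranked were tested genes averaging at least 2 CPM over the 12 injured libraries. Gene models with Gm, Rik, Ensembl, clone or pseudogene symbols were left out of that ranking. Versions were R 4.3.3, edgeR 4.0.16, limma 3.58.1, DESeq2 1.42.0, Python 3.11.15, numpy 2.4.6, pandas 2.3.3, scipy 1.17.1 and matplotlib 3.10.9.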

Additional observations from a re-analysis of the deposited data

Results flagged for a closer look

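Vcan in the IR group had 1 library far from the other 5: IR 6 stood at 151.936 CPM, and the next highest, IR 3, at 93.274 CPM. Chance gives about 1 such library in 20 groups of values, and 27 groups (9 genes in 3 groups of animals) were looked at. IR 6 also had the highest summed activated fibroblast markers of all libraries, 3206.5 CPM, and their part in the Vcan value was not tested.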

How the results depend on the processing

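Of the recomputed values for the 9 genes, 768 kept direction and side of the threshold, 21 lost a call, 7 gained one and 9 turned sign. For the other named genes these were 2115, 15, 8 and 18. Values to which DESeq2 gave no adjusted p were counted as kept where their direction held. The number of genes called in IR+Decursin against IR was 0, but 470 with DESeq2 and 0 to 976 over single-library omissions (976 without IR+Decursin 1, 2 without IR+Decursin 4), and the number of the 9 genes called there was 0 to 1. In IR against SHAM the omissions gave 6599 to 7246 genes, and in IR+Decursin against SHAM 3461 to 5130 genes and 5 to 7 of the 9. Sign turned for Hyal1 in IR against SHAM with total-count scaling (0.2359), log2(FPKM + 1) (0.1399), log2(FPKM + 0.1) (0.2185), without the libraries with Xist (0.0593) and among omissions (-0.246 to 0.0729), for Hyal2 there among omissions (-0.006 to 0.0907), and in IR+Decursin against IR among omissions for Cemip (-1.0829 to 0.0368) and Layn (-0.2019 to 0.0611). With total-count scaling, log2(FPKM + 1) and log2(FPKM + 0.1), Tusc2 became 0.0089, 0.005 and 0.0052 in IR against SHAM, and in IR+Decursin against SHAM Ifrd2 became 0.1434, 0.1222 and 0.1296, Nprl2 0.0134, 0.0092 and 0.0097, and Tusc2 0.1944, 0.1715 and 0.182 (omissions -0.0929 to 0.0251). With total-count scaling the median of all tested genes was 0.31 in IR against SHAM and 0.22 in IR+Decursin against SHAM. The cause of the sign changes was not tested. With log2(FPKM + 1), which compresses low genes, Has1, Has2 and Cemip lost their calls in IR+Decursin against SHAM (adjusted p = 0.0730, 0.0763 and 0.0882, limma), and Has1 also with no filter (adjusted p = 0.0603, edgeR). A filter of 1 CPM in 6 libraries left Has1 out, and the fit of IR+Decursin and SHAM alone left out Has1 and Cemip, so neither gave a value for them. Libraries of different groups with the same replicate number had r from -0.520 to 0.406 after centring on group means. Differently numbered libraries were not compared, so these values cannot show whether the numbers pair the samples. A replicate block gave 6715, 0 and 3873 genes called in IR against SHAM, IR+Decursin against IR and IR+Decursin against SHAM, with 0 and 6 of the 9 in the last 2. With that block, Has1 (1.89, adjusted p = 0.0731, edgeR) and Itih2 (0.96, adjusted p = 0.0587, edgeR) lost their calls in IR+Decursin over SHAM. Depth limits Has1, and Cemip in SHAM, to a few counts per library.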
